A study of Mus musculus with 4 samples.

Results

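The 9 genes described here encode proteins stored in the acrosome of the mouse sperm head or displayed there for the meeting with the egg. They are Acr, Acrbp, Acrv1, Spaca3, Spaca4, Spam1, Hyal5, Spesp1 and Izumo1, among the 22311 genes with a value in every sample. The choice went by their known roles, with earlier results of these data known. All 9 were among the 12985 genes that reached 1 FPKM (fragments per kilobase of transcript, scaled to the mapped fragments of the sample) in no fewer than 2 of the 4 samples, which were the genes tested. RNA was sequenced from the testes of 24-day-old male mice, with 2 samples of mutant animals labelled rfx2-/- and 2 samples of control animals. The labels call the controls wild type and give the strain of all samples as DBA, whereas the study's text describes heterozygous controls and a mixed 129/s6 and C57BL/6 background. The mutant allele carries a neomycin-resistance cassette in place of the exons for the DNA-binding domain of RFX2, is carried by every cell of the animal and goes back to a single embryonic stem cell clone. Mutant animals with normal growth were used. The study describes the samples of a genotype as independent biological samples. Whole testes were used, so that each value is an average over germ cells and somatic cells.

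The acrosome is a vesicle that grows from the Golgi apparatus over the nucleus of the round spermatid and covers the front of the sperm head. Its contents are released when the sperm meets the layers around the egg, and the membrane of its equatorial segment then takes part in fusion with the egg. Most genes for acrosomal proteins are transcribed in late spermatocytes and round spermatids, ahead of the condensation of the chromatin that ends transcription. RFX2 is a transcription factor of the male germ line that binds a DNA element called the X-box, and the comparison of mutant and control testes asks which transcripts depend on it.

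As a check of the labels, the targeted gene Rfx2 had an FPKM of 36.7 in mutant 1, 39.8 in mutant 2, 123 in control 1 and 89.4 in control 2. Both mutant samples lay below both controls, and the fall of 1.43 on the log2 scale passed the test (limma adjusted p = 0.00617). The adjusted p of Rfx2 was above the threshold of 0.05 without the filter on low values, at 0.0607, and with median-ratio scaling, at 0.0669. With 1 sample left out, its log2 difference ranged from -1.66 to -1.20. The confidence bounds that the authors deposited beside each FPKM correspond to between 17.2 and 20.4 M fragments per sample, an estimate that is well below the number of reads given in the study's methods. The reason for this gap was not tested. For the 9 genes these bounds lay between 2.03% and 9.76% above or below the value, so that counting error was small beside most of the differences described below. Over all genes tested, the log2 difference had a standard deviation of 0.47 within the mutant pair and 0.35 within the control pair.

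No member of the group passed the test between the genotypes. In limma on log2(FPKM + 1), with Benjamini-Hochberg adjustment over all genes tested, 0 of 9 were lower in mutant testes, where 2.52% of all genes tested were lower, and 0 of 9 were higher, where 0.308% were. Each of the 9 genes had an adjusted p of 0.9999. At an unadjusted p under 0.05 the counts were again 0 lower and 0 higher, beside 6.68% and 2.01% of all genes. No member had both mutant samples below both controls, as 15.2% of genes did, or both above, as 16.3% did. The median difference between the genotypes was -0.09 over the members and 0.03 over all genes tested, on the log2 scale. A small number of samples leaves wide intervals, and the largest fall that the 95% interval of a member allowed was -1.17, for Hyal5, while the largest rise was 0.87, for Acrbp and Spaca3.

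The mutant samples lay far apart for most of the group. In mutant 1, Acrv1, Spaca3, Spaca4, Spam1, Hyal5 and Izumo1 lay below both controls, which is 6 of 9 members where 25.7% of all genes did so, and Spesp1 alone (1 of 9) lay above both, where 44% of genes did. In mutant 2, 7 of 9 lay above both controls, where 26.2% of all genes did so, and the exceptions were Hyal5 and Spesp1, and 0 of 9 lay below both, where 32.5% of genes did. For 5 members, Acrv1, Spaca3, Spaca4, Spam1 and Izumo1, mutant 1 was below and mutant 2 above both controls, a pattern found in 6.42% of all genes. The FPKM of mutant 2 was at least 1.5 times that of mutant 1 for 6 of 9 members and for 8.16% of all genes, and the opposite held for 0 of 9 members and 2.5% of all genes. Between the controls, control 1 was at least 1.5 times control 2 for 0 of 9 members and for 2.13% of all genes. The confidence bounds of mutant 1 lay wholly below those of both controls for 6 members. Those of mutant 2 lay wholly above for 4, which were Acrbp, Acrv1, Spaca3 and Spaca4. The share of all genes tested with bounds apart in this way was not counted, so these numbers do not set the group apart. These counts compare single samples and carry no test.

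**Figure D1:**
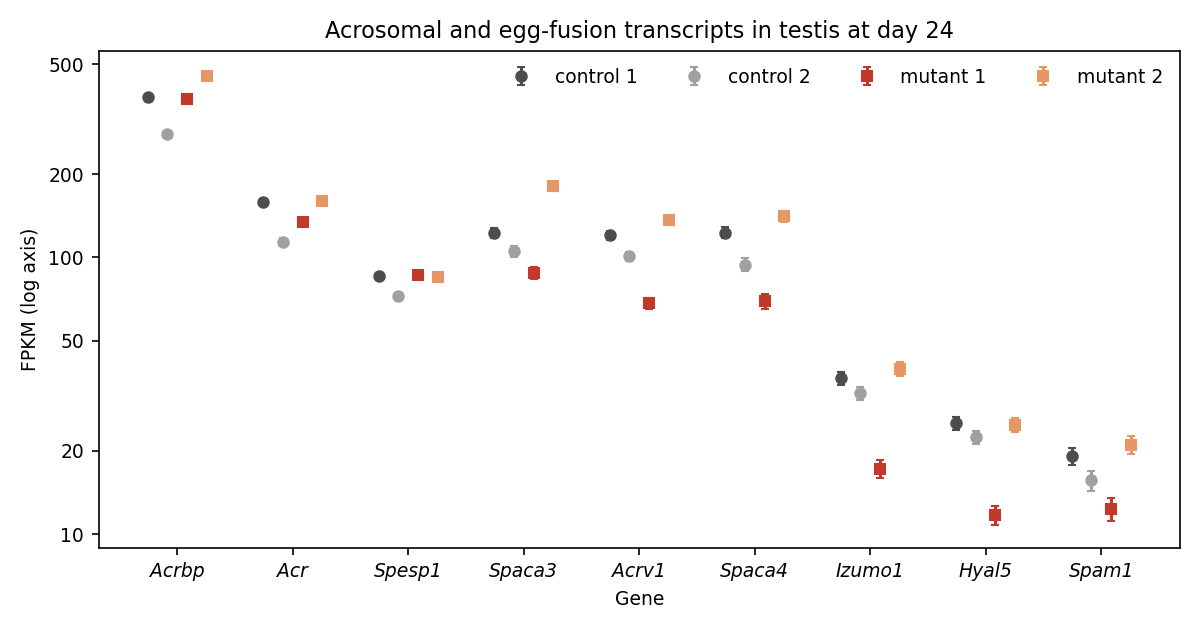
FPKM of the 9 genes, on a log axis, with circles for control 1 and 2, squares for mutant 1 and 2, and error bars for the confidence bounds of the authors, which are often smaller than the symbol. For Acrv1, Spaca3, Spaca4, Spam1 and Izumo1 the control samples sit between mutant 1 and mutant 2, while the mutant samples of Spesp1 almost coincide, at 86.1 and 85.1.

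Acr and Acrbp encode acrosin and the protein that binds its precursor. Acr encodes acrosin, the serine protease of the acrosomal matrix, and lies at chr15:89398757-89405015 on the plus strand of mm9, with 5 exons. Its FPKM was 134 in mutant 1, 160 in mutant 2, 158 in control 1 and 114 in control 2. Mutant 1 fell between the controls and mutant 2 lay just above the higher of them. The means were 147 ± 18.6 in mutant and 136 ± 31.4 in control testes (SD, n = 2 each), a log2 difference of 0.13 (SE 0.21, 95% interval -0.36 to 0.61).

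Acrbp encodes the acrosin-binding protein, which binds proacrosin and takes part in packing it into the acrosomal granule. Its values were 375 and 454 in mutant 1 and 2, and 380 and 279 in control 1 and 2. It was the highest of the 9 genes in every sample and held between 33.4% and 43.5% of their summed FPKM. Mutant 1 lay inside the range of the controls and mutant 2 above it, and the log2 difference of 0.34 (SE 0.23, 95% interval -0.19 to 0.87) did not pass the test. Within a sample, the ratio of Acr to Acrbp stayed in a narrow range, at 0.358 and 0.353 in mutant 1 and 2 and 0.417 and 0.408 in control 1 and 2. Both mutant ratios were below both control ratios, as they also were for Hyal5 to Spam1. For Spaca3 to Spaca4 both were above, at 1.267 and 1.285 in mutant 1 and 2 beside 0.9973 and 1.115 in the controls. The other ratios formed showed neither order. These ratios were not tested, and the share of gene pairs with such an order was not counted. The annotated exons of Acrbp (chr6:124999707-125013285, plus strand, 10 exons) share 932 of 3277 bases with those of Ing4 on the same strand, and reads from that stretch cannot be assigned to either gene with certainty. Ing4 was measured at 9.92 to 12.3 FPKM in the 4 samples, far below Acrbp.

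Acrv1, Spaca3 and Spaca4 encode acrosomal proteins first known as sperm antigens, and all were about 2 times higher in mutant 2 than in mutant 1. Acrv1 encodes SP-10, a protein of the acrosomal matrix and membrane, from 4 exons at chr9:36500805-36506422 on the plus strand. Its FPKM was 68.5 in mutant 1, 137 in mutant 2, 120 in control 1 and 101 in control 2. The controls lay inside the span of the mutant samples, and the log2 difference was -0.18 (SE 0.30, 95% interval -0.88 to 0.52).

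Spaca3 encodes a lysozyme-like protein of the acrosome that lacks the bacteria-degrading activity of true lysozymes, from 6 exons at chr11:80671867-80681316 on the plus strand. It reached 88.1 in mutant 1, 181 in mutant 2, 123 in control 1 and 105 in control 2. Mutant 2 stood at 159% of the control mean, the highest such value of the 9 genes, and mutant 1 at 77.3%. The log2 difference between the genotypes was 0.15 (SE 0.31, 95% interval -0.57 to 0.87).

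Spaca4 encodes a small membrane-anchored protein of the Ly-6 family on the acrosomal membrane, from 1 exon at chr7:52980477-52981186 on the minus strand, inside the span of Fam83e but clear of its exons. The 4 values were 69.5 in mutant 1, 141 in mutant 2, 123 in control 1 and 94.3 in control 2. As for Acrv1, mutant 1 was the lowest sample and mutant 2 the highest, and the log2 difference was -0.12 (SE 0.31, 95% interval -0.85 to 0.61). Spaca4 and Acrv1 had nearly equal levels per length in every sample, with a ratio of 1.01 in mutant 1, 1.03 in mutant 2, 1.03 in control 1 and 0.934 in control 2.

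The hyaluronidases open the hyaluronan-rich matrix of the cumulus cells around the egg. Spam1, also known as PH-20, and Hyal5 are sperm members of that family and neighbours on chromosome 6, at chr6:24745824-24751048 and chr6:24825871-24841958, both on the plus strand with 3 exons and separated by 74822 bases. Spam1 measured 12.3 in mutant 1, 21.0 in mutant 2, 19.1 in control 1 and 15.6 in control 2. Hyal5 measured 11.7 in mutant 1, 24.8 in mutant 2, 25.1 in control 1 and 22.4 in control 2. For Spam1 the controls lay between the mutant samples, while for Hyal5 mutant 2 lay within the controls and mutant 1 alone stood apart, at 49.1% of the control mean.

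The difference between the genotypes was -0.09 for Spam1 (SE 0.26, 95% interval -0.69 to 0.51) and -0.45 for Hyal5 (SE 0.31, 95% interval -1.17 to 0.27), on the log2 scale. Without mutant 2 the difference of Hyal5 was -0.96. This leaves mutant 1 as the only mutant sample, which cannot test the genotype. Hyal5 exceeded Spam1 in 3 of the 4 samples, with a ratio of 1.31 in control 1, 1.43 in control 2 and 1.18 in mutant 2, and fell below it in mutant 1, where the ratio was 0.946. The coding sequences of these genes, of 1539 and 1581 bases, were identical at 69.1% of 1538 aligned positions, and their longest stretch without a difference was 31 bases. This share counts aligned positions only, so pairs of unlike length cannot be compared by it. Acrv1, of only 786 coding bases, reached 69.04% of 785 positions against Hyal5, with a longest shared run of 13 bases. Acrbp, of 1623 coding bases, is nearer in length and reached 50.3% against Spam1 and 50.8% against Hyal5. Apart from Spam1 and Hyal5, no pair among the 9 genes shared a coding run of more than 13 bases. Within these coding sequences, reads of 1 member that fit another are a concern for Spam1 and Hyal5 alone, in short stretches. Only the longest coding sequence of each gene was compared, and untranslated regions were not.

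The proteins of the equatorial segment and of fusion differed in how far their mutant samples lay apart. Spesp1 encodes an equatorial segment protein, from 2 exons at chr9:62118536-62129986 on the minus strand. Its FPKM was 86.1 in mutant 1, 85.1 in mutant 2, 85.8 in control 1 and 72.8 in control 2. These values were the most even of the group, and mutant 2 was 0.988 times mutant 1. Its log2 difference was 0.11 (SE 0.16, 95% interval -0.27 to 0.50), the narrowest interval of the 9 genes.

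Izumo1 encodes the immunoglobulin-type sperm protein that binds its receptor Juno on the egg and is needed for fusion. It lies at chr7:52877181-52884193 on the plus strand with 10 exons, 96283 bases from Spaca4. The 4 values were 17.2 in mutant 1, 39.6 in mutant 2, 36.6 in control 1 and 32.3 in control 2. Mutant 1 was at 50.05% of the control mean and mutant 2 at 115%, and the ratio of mutant 2 to mutant 1, at 2.30, was the highest of the 9 genes. The log2 difference between genotypes was -0.38 (SE 0.33, 95% interval -1.15 to 0.40). Without mutant 2 it was -0.96, in a fit that takes the spread of the lone mutant 1 from the controls and cannot test the genotype. Relative to Spesp1 in the same sample, Izumo1 stood at 0.2002 in mutant 1, against 0.465 in mutant 2, 0.426 in control 1 and 0.444 in control 2. Exons of Izumo1 share 654 of 2992 bases with those of Rasip1 on the same strand, and Rasip1 was measured at 1.65 to 2.13 FPKM.

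Across the group, Acrbp was ranked 1 of the 9 genes in every sample and Izumo1 was ranked 7, with Hyal5 and Spam1 below it in every sample and Spam1 above Hyal5 in mutant 1. Below Acrbp, the control means of Acr, Spaca3 at 114 ± 12.5, Acrv1 at 111 ± 13.5 and Spaca4 at 109 ± 20.4 (SD, n = 2) did not differ beyond their spread, and Spesp1 at 79.3 ± 9.17 was next. Izumo1 at 34.4 ± 3.02, Hyal5 at 23.8 ± 1.95 and Spam1 at 17.4 ± 2.48 followed without overlap of the control samples. The summed FPKM of the 9 genes was 862 in mutant 1, 1243 in mutant 2, 1071 in control 1 and 837 in control 2. Mutant 2 had the highest sum, and mutant 1 lay between the controls. That sum rests largely on Acrbp and Acr, which were not low in mutant 1, and so does not show the 6 genes that were.

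**Figure D2:**
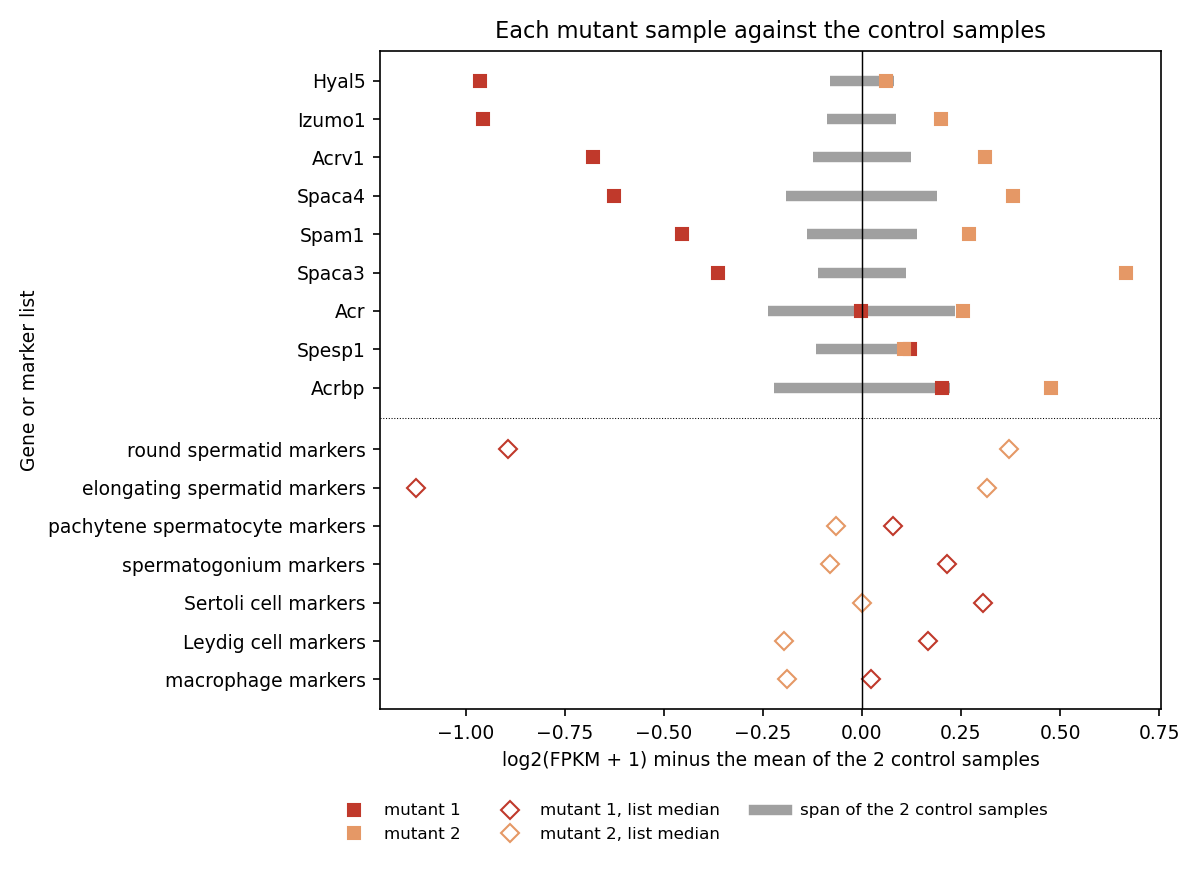
Difference of each mutant sample from the mean of the 2 controls, on the log2(FPKM + 1) scale, for the 9 genes (squares) and as medians over 7 lists of cell type markers (diamonds), with mutant 1 in dark red and mutant 2 in orange. Grey bars span the 2 control samples, and mutant 1 lies below them for 6 genes, with the marker medians of round and elongating spermatids at -0.89 and -1.13.

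Markers of spermatids differed between the mutant samples in the same direction as the 6 genes. The summed FPKM of the 8 round spermatid markers, among them the kinases Tssk1 and Tssk2 and the calcium channel subunits Catsper3 and Catsper4, was 388 in mutant 1, 980 in mutant 2, 789 in control 1 and 652 in control 2. All 8 were below both controls in mutant 1 and 7 of 8 were above both in mutant 2. The 11 markers of elongating spermatids, such as the protamines Prm1 and Prm2, summed to 1715 in mutant 1, 7542 in mutant 2, 8629 in control 1 and 5945 in control 2. Of these markers, 11 of 11 were below both controls in mutant 1 and only 6 of 11 above both in mutant 2. Their median ratio of mutant 2 to mutant 1 was 2.75, against 2.42 for the round spermatid markers and 1.70 to 2.30 for the 6 acrosomal genes.

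Markers of earlier germ cells and of somatic cells varied in other ways. The 9 markers of pachytene spermatocytes, among them Sycp1 and Sycp3 of the synaptonemal complex, summed to 3906 in mutant 1 and 3897 in mutant 2. These sums lay within the 3618 to 4148 of the controls, and Ldhc alone gave 2379 and 2426 of them. Pgk2 of this list had both mutant samples below both controls, at 123 and 169 beside 225 and 195. Hspa2 had both above, at 614.6 and 622.5 beside 614.2 and 539.5. The 7 spermatogonium markers summed to 111 and 87.9 in mutant 1 and 2, with 76.7 and 112 in the controls. Sertoli cell markers, of which 7 of 8 had a value, summed to 778 and 683 beside 526 and 726. Leydig cell markers summed to 418 and 235 beside 369 and 135, with 6 genes, so that the controls differed more than the mutant samples. Most of these sums came from Insl3, at 326 and 157 beside 266 and 51.5. The 5 macrophage markers summed to between 8.93 and 12.8 in all samples. No marker in any of the 7 lists was called by limma. In whole testis, fewer cells of a type and less RNA per cell cannot be told apart, and the part of the spermatid markers in the values of the 9 genes was not tested.

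The median of mutant 2 minus mutant 1 on the log2 scale was 0.99 for the 9 genes and -0.12 for all genes tested, and the median of control 1 minus control 2 was 0.25 and -0.08. Set against the mean log2 level of the round spermatid markers in the same sample, the differences took another form. For 1 of 9 members, Spaca3, both mutant samples were above both controls on this relative scale, at 1.07 and 0.74 in mutant 1 and 2 and 0.50 and 0.51 in control 1 and 2, where 3.27% of all genes tested were. For 0 of 9 members were both mutant samples below both controls, where 4.91% of genes were. Izumo1 was then at -1.22 and -1.42 in mutant 1 and 2, beside -1.22 and -1.16 in the controls. Mutant 2, and not mutant 1, lay below both controls. Hyal5 had the same order, at -1.74 and -2.08 beside -1.74 and -1.67. For Acrv1, Spaca4 and Spam1 mutant 1 lay above both controls, at 0.71, 0.73 and -1.67. Their controls were at 0.47 and 0.46 for Acrv1, 0.50 and 0.36 for Spaca4, and -2.12 and -2.16 for Spam1. Mutant 2 was below both controls for Acrv1 and Spam1, at 0.34 and -2.30. Acr, Acrbp and Spesp1 also had mutant 1 above both controls, with Acrbp at 3.15 beside 2.12 and 1.91. The share of all genes with mutant 1 above, or mutant 2 below, both controls on this scale was not counted. These orders therefore do not set members apart. Spesp1 spread widely on this scale, at 1.04 in mutant 1 and -0.34 in mutant 2, with both controls at -0.01. Its own FPKM was nearly equal in mutant 1 and 2, at 86.1 and 85.1. The spread is thus that of the marker mean, which is subtracted. Acr showed a like spread, at 1.67 in mutant 1 and 0.57 in mutant 2, with 0.86 and 0.63 in the controls. There too the marker mean made the spread, as the FPKM of Acr was lower in mutant 1 than in mutant 2. These relative levels are log2 differences, described with no test.

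**Figure D3:**
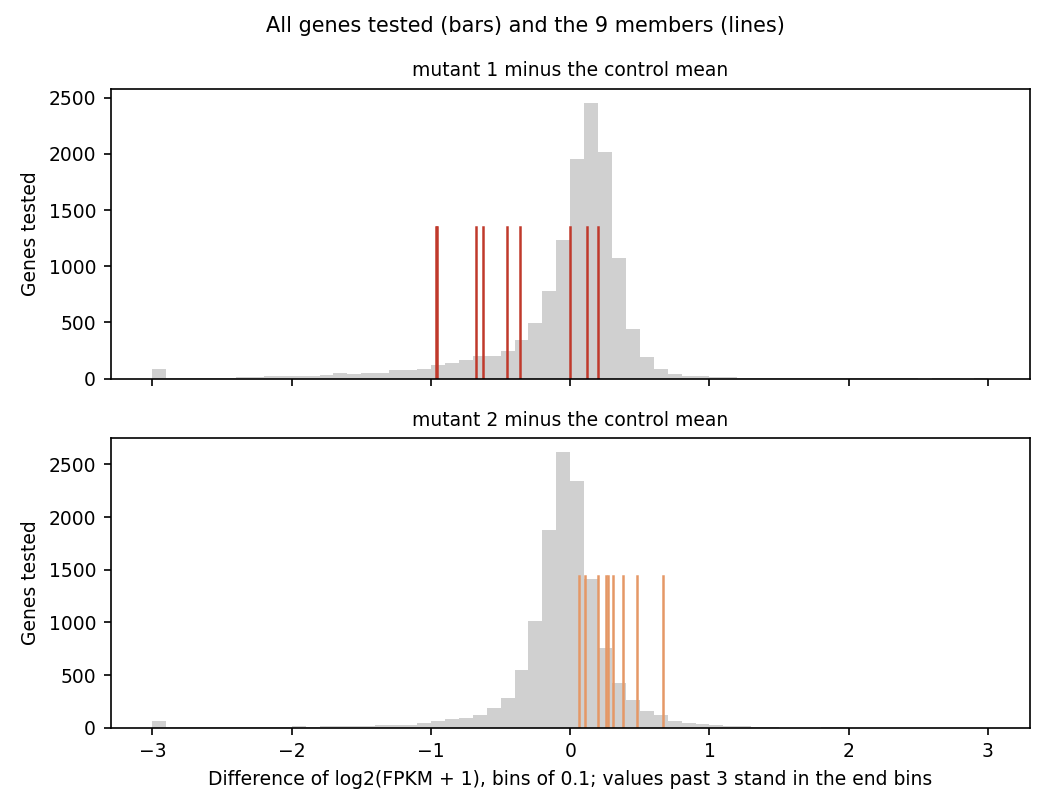
Number of the 12985 genes tested in bins of 0.1 of the difference from the control mean on the log2(FPKM + 1) scale (grey bars), for mutant 1 above and mutant 2 below, with a vertical line for each of the 9 genes and values past 3 in either direction placed in the end bins. For mutant 1 the lines of 6 genes lie at -0.36 or further left, and those of Acr, Spesp1 and Acrbp lie near 0 or to its right, with a median of -0.45 beside 0.10 for all genes. For mutant 2 all lines lie to the right of 0, with a median of 0.27 beside -0.03.

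Among other genes of the acrosome and of gamete fusion, few were called. A list of 40 such genes, chosen by function, had 38 with a value and 35 that could be tested, and 2 of 35 were lower and 0 of 35 higher in mutant testes, beside the 2.52% and 0.308% of all genes tested. Their median log2 difference was -0.05. Both mutant samples lay below both controls for 9 of the 35, beside 15.2% of all genes, and above both for 2 of the 35, beside 16.3%. In mutant 1, 23 of the 35 lay below both controls, beside 25.7% of all genes, and 17 of the 35 were at least 1.5 times higher in mutant 2 than in mutant 1, beside 8.16%.

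The genes called lower were Tmem190 and Prss40. Prss39 missed the threshold narrowly, at 89.3 and 100 in mutant 1 and 2 and 166 and 163 in the controls (limma adjusted p = 0.05003). Tmem190, a membrane protein of the acrosomal region, had an FPKM of 9.13 in mutant 1, 24.1 in mutant 2, 113 in control 1 and 94.8 in control 2. Both mutant samples lay far below both controls, and the gene fell by 2.71 on the log2 scale (SE 0.37, limma adjusted p = 0.00662). Prss40, a testicular serine protease, was at 7.70 and 6.86 in mutant 1 and 2 and at 16.4 and 14.9 in the controls, and fell by 1.01 (SE 0.19, limma adjusted p = 0.0329). Either call depends on the processing. Without the filter on low values the adjusted p from limma was 0.104 for Tmem190 and 0.0906 for Prss40, and with quantile normalization it was 0.0558 and 0.0529. For Tmem190 it was also 0.0755 with median-ratio scaling and 0.435 with robust moderation, and for Prss40 it was 0.0520 with a crossed replicate block. Both calls stayed with a pseudocount of 0.1, a filter at 5 FPKM and no trend. With 1 sample left out, the log2 difference ranged from -3.37 to -2.06 for Tmem190 and from -1.08 to -0.94 for Prss40. Such a fit leaves 1 sample in a group and cannot test the genotype.

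At the ends of the list without a call, Cd46, a complement regulator of the inner acrosomal membrane in rodents, was at 1.31 and 4.26 in mutant 1 and 2 and 7.22 and 5.29 in the controls (limma adjusted p = 0.377). Tmem95, a membrane protein needed for sperm and egg fusion, was at 16.5 and 18.9 in mutant 1 and 2 and 13.0 and 8.44 in the controls (limma adjusted p = 0.296). Lyzl4, a lysozyme-like relative of Spaca3, was at 28.8 and 58.3 in mutant 1 and 2 and 36.4 and 29.0 in the controls. In both Lyzl4 and Spaca3, mutant 2 was the highest sample and mutant 1 the lowest, although for Lyzl4 mutant 1 and control 2 were nearly equal.

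The promoters of 8 of the 9 genes were read from RefSeq sequences of GRCm38.p6, from 250 bases before to 50 bases after the start site, and all motifs were searched on both strands. Spaca3 has 2 start sites and was counted once, whereas the shares over all promoters count each start. The X-box, the element RFX proteins bind, with a gap of 0 to 3 bases, was in 0 of 8 genes and in 1.53% of all 32851 promoters. With 1 mismatch it was still in 0 of 8, where 11.3% of promoters held it. This says only that these letters are not in these windows. The palindrome TGACGTCA, known as the cAMP response element and bound by the spermatid regulator CREM, was in the promoter of Izumo1 from position -96 to -89 and in 1.79% of all promoters. Its shorter form TGACG, which the palindrome contains, was in 4 of 8 genes and 20.8% of all promoters. The genes were Izumo1, Acrbp from -18 to -14, Spaca3 from -62 to -58 and Spesp1 from 8 to 12. Counted from start 2 of Spaca3, a match lay from -88 to -84.

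Spam1 and Hyal5 hold TGATGTCA, a form that differs from the palindrome at 1 base and was chosen after the sequences were read, from -46 to -39 and from -85 to -78. It was in 3.62% of all promoters. Around it these neighbours share a run of 18 bases that occurs in 2 of the 32851 promoters, while their upstream sequences were identical at 49.2% of 234 aligned positions. The last 150 bases before the start of Spam1 (chr6:24791038-24791187), Hyal5 (chr6:24857847-24857996), Izumo1 (chr7:45621661-45621810) and Acrbp (chr6:125049777-125049926), all on the plus strand of GRCm38.p6, are shown 5′ to 3′ to set the shared stretch of the hyaluronidase genes beside the palindrome of Izumo1 and the short form in Acrbp, with the matched motif in capitals. Each window was found once in mm9. The RefSeq start of Izumo1 is the gene start given above, and the gene start of Acrbp lies at position -238 from its RefSeq start, whereas the RefSeq starts of Spam1 and Hyal5 lie 4636 and 17874 bases upstream of the gene starts given above, outside the mm9 gene models.
Spam1: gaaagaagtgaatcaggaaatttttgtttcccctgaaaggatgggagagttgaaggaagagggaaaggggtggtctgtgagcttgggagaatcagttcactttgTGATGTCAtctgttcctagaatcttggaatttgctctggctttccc
Hyal5: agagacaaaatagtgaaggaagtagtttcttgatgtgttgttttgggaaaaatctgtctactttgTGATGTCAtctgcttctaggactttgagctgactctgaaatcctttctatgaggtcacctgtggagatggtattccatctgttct
Izumo1: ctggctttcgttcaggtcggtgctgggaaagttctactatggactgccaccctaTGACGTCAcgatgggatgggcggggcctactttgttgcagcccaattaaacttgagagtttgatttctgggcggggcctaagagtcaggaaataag
Acrbp: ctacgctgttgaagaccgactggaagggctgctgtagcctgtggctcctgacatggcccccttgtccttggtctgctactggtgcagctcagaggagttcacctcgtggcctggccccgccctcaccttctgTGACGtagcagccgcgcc
The capitals are sequence matches and not measured binding.

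**Figure D4:**
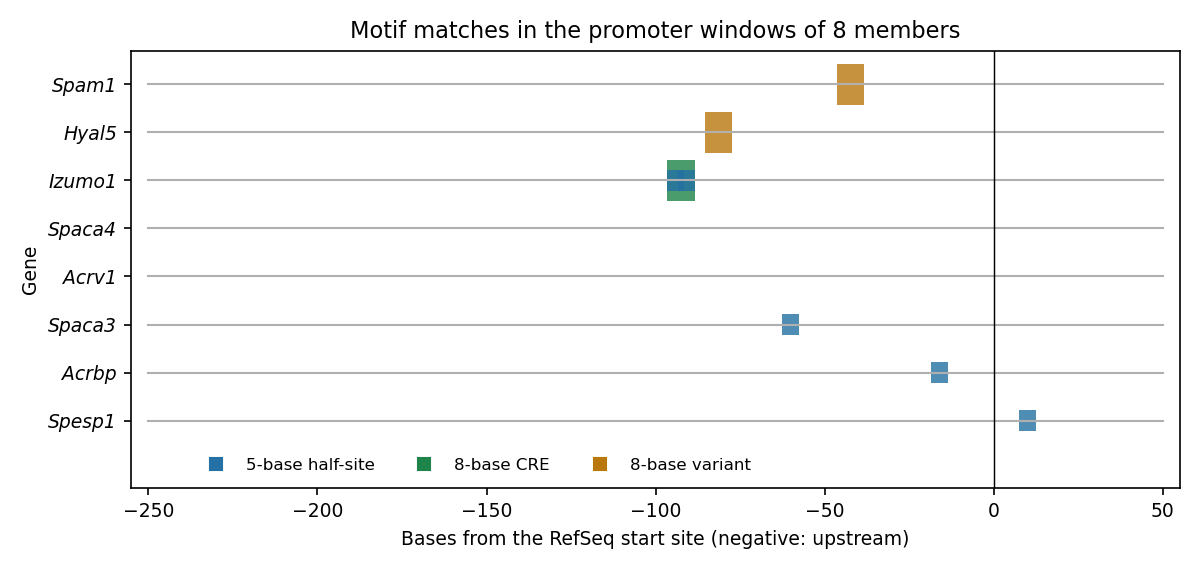
Positions of motif matches in the RefSeq promoter windows of 8 genes, in bases from the start site, with the window drawn as a grey line. The 8-base palindrome is in Izumo1 alone, the 8-base variant in Spam1 and Hyal5, and the 5-base half-site in Izumo1, Spaca3, Acrbp and Spesp1.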

How the data were processed

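Per the labels, RNA from mouse testes was extracted with Trizol and sequenced on an Illumina HiSeq instrument. The submitters' processing notes name TopHat2 2.0.6, Cuffdiff and mm9, and the files the authors deposited list an FPKM per gene beside a low and a high confidence bound. These FPKM are normalized for gene length and depth within a sample, with no scaling between samples seen here, and they are not counts. Depth was therefore taken from the width of the bounds, as an estimate that is not whole for many genes, and no model for counts was used.

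The groups were taken from the labels, with 2 mutant and 2 control samples. Values of entries that share a symbol were summed. Genes reaching 1 FPKM in no fewer than 2 samples were compared on log2(FPKM + 1) with limma 3.58.1 in R 4.3.3 (linear model, moderated with a trend of variance on mean). Tests were two-sided, p-values were adjusted by Benjamini-Hochberg over all 12985 genes tested and the threshold was 0.05. Fold changes on this scale understate those of low genes. The fit was also run on simulated data with independent errors for each gene and sample. That setting leaves out differences shared by many genes between samples of a genotype, so it cannot test the fit for those. Tables and figures were made with python 3.11.15, pandas 2.3.3, numpy 2.4.6 and matplotlib 3.10.9.

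The members, the 40 other acrosome genes, the marker lists and the motifs were chosen with earlier results of these data known. The genes named are the 9 members, Rfx2 and, of the 40, up to 3 with an adjusted p under 0.05 in each direction and the 2 lowest and 2 highest differences. Prss39 was named in addition, for its place just above the threshold. Marker genes are given as examples of their lists. Of the 40, 4 were found under older symbols. Gene positions are those of GENCODE on NCBIM37 (mm9), and promoters are RefSeq sequences of GRCm38.p6.

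The alternatives were a pseudocount of 0.1, no filter, a filter at 5 FPKM, median-ratio scaling, quantile normalization, no trend, robust moderation, a replicate block, the highest entry per symbol, the ratio of the genotype means with no pseudocount, each sample left out in turn, and 1 mismatch in the X-box. The crossed replicate block and the motif TGATGTCA were added after seeing the data.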

Additional observations from a re-analysis of the deposited data

How the results depend on the processing

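With all 4 samples, the difference of each of the 9 genes kept its direction in the 4 alternative settings that could move it (36 values), of which the ratio of the genotype means with no pseudocount carries no test. In 7 more settings the difference is the same by construction and only its p can move. In all settings with 4 samples and a test 0 members were called, and the lowest adjusted p was 0.639 from limma. With 1 sample left out, only the sizes of the differences are read for the members. The ranges of the log2 differences were then -0.11 to 0.36 for Acr, 0.12 to 0.56 for Acrbp, -0.68 to 0.31 for Acrv1, -0.36 to 0.67 for Spaca3, -0.63 to 0.38 for Spaca4, -0.45 to 0.27 for Spam1, -0.96 to 0.0596 for Hyal5, -0.0031 to 0.23 for Spesp1 and -0.96 to 0.20 for Izumo1, and -1.66 to -1.20 for Rfx2. Among the other acrosome genes, Lyzl4 ranged from -0.17 to 0.82. Such a fit leaves 1 sample in a group, which is assumed to vary like the other group. Over all genes tested, 327 were lower and 40 higher. These numbers were 199 and 17 without a filter and 202 and 17 with a filter at 5 FPKM. With median-ratio scaling 17 were higher, and with robust moderation 67 were. They were 948 and 102 without mutant 2, 433 and 162 without mutant 1, 167 and 17 without control 1, and 213 and 13 without control 2. The adjusted p of Rfx2 was above the threshold without a filter, where its difference was -1.43, and with median-ratio scaling, where it was -1.46. Samples labelled with the same replicate number deviated from their group means with a correlation of -0.15 over genes, which does not pair them. The replicate block gave 525 lower and 70 higher genes, leaves 1 residual degree of freedom and gave some implausibly small p-values. The crossed replicate block, chosen after seeing the data, gave 266 and 28. The cause of these shifts was not tested.

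A pair of samples per genotype limits what can be seen here more than depth does, and a member without a call was not shown to be unchanged. Groups of this size were not screened for samples that stand apart.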
